A study of Mus musculus with 12 samples.

Results

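The transcriptome of yolk sacs homozygous for the V1068G allele of Arid1a was compared with that of wild-type yolk sacs as 1 average over embryonic day 8.5 (E8.5) and E9.5. Arid1a, also called Baf250a, encodes the SWI/SNF subunit whose ARID domain binds DNA, and V1068G is a substitution in the protein. All 12 arrays of the series entered the comparison: 3 mutant and 3 wild-type yolk sac samples at E8.5, and 3 mutant and 3 wild-type samples at E9.5. Both genotypes were on a CD1 background, and the labels call the 3 samples of a group biological replicates without saying whether a sample was 1 yolk sac or several. Every array held Cy5-labelled yolk sac RNA against the same Cy3-labelled reference, RNA of whole neonatal wild-type mice of mixed 129Sv and C57BL/6 origin. Values are log2 ratios of Cy5 over Cy3, and a genotype difference is mutant minus wild type with stage as a covariate, so each one rests on 6 mutant against 6 wild-type arrays. Of the genes on the array, 13894 were measured above background and tested.

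The yolk sac surrounds the early mouse embryo and has an outer layer of visceral endoderm facing an inner mesoderm. The endoderm takes up and digests maternal nutrients and secretes the plasma proteins that the liver will make later. The mesoderm forms the first vessels and, in blood islands, primitive red cells, megakaryocytes and macrophages. SWI/SNF complexes use ATP to move or evict nucleosomes, and Arid1a defines 1 form of the complex. The labels name the genotypes and stages as the design, and the series title speaks of a need for ARID-DNA contact in SWI/SNF promoter occupancy.

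Endoderm and red cell markers of the labelled tissue stood above the whole-mouse reference. The endoderm gene Afp had log2 ratios of 0.23 to 2.16 in mutant arrays and 0.28 to 2.26 in wild-type arrays. The embryonic globin Hbb-y, expressed in primitive red cells, stood at 6.08 to 7.39 in mutant arrays and 5.70 to 6.90 in wild-type arrays. Markers of vessels and mesenchyme lay near or below the reference. Tek stood at 0.11 to 0.44 in mutant arrays and 0.16 to 0.45 in wild-type arrays, and Cdh5 at -0.53 to -0.29 and -0.46 to -0.24. Pdgfra stood at -1.55 to -1.06 in mutant arrays and -1.78 to -1.33 in wild-type arrays, and Col1a1 at -3.89 to -2.46 and -4.53 to -2.39. Transcripts of neighbouring tissues were unevenly spread. Prl4a1, a trophoblast hormone gene, stood at 5.70 in mutant E8.5 replicate 3, at 3.74 in the third mutant sample of E9.5 and at 4.31 in the third wild-type sample of E9.5. The other 9 arrays had 0.26 to 1.53. Myl7, a cardiac myosin light chain, was at 0.01 in wild-type E8.5 replicate 2, against -3.14 to -1.47 in the rest. In that array Hes5, a neural Notch target, was at 0.06, against -1.55 to -1.41 elsewhere. The part of these tissues in the differences below was not tested beyond leaving such arrays out. Of the 99 called genes in the tables behind this text, 43 lost their call without the 3 arrays high in Prl4a1, and 0 changed sign. Prl8a2, a hormone gene of decidua, ran from 0.69 to 3.53 in mutant arrays and from 0.74 to 3.17 in wild-type arrays. The arrays high in Prl8a2 were not left out as a set. Xist, a transcript of female cells, had -1.76, -4.01 and -4.17 in mutant E8.5 yolk sacs, against -1.37, -0.67 and -1.03 in wild-type ones. At E9.5 Xist had -1.75, -0.52 and -1.14 in mutant yolk sacs, against -1.98, -4.02 and -1.35 in wild-type ones. Eif2s3y, a Y-linked gene, ran from -0.05 to 0.40 in mutant E8.5 yolk sacs, against -0.67 to -0.40 in wild-type ones. At E9.5 it ran from -1.32 to -0.32, against -0.80 to -0.26. With Xist as a covariate, 8 of the 99 genes lost their call, and the part of sex was not tested further. Between 46.7% and 50.1% of probes were well above background in Cy5.

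Arid1a transcript itself did not pass the test. Its log2 ratios were -0.09, 0.07 and 0.07 in mutant E8.5 yolk sacs, against -0.12, 0.04 and -0.02 in wild-type E8.5 yolk sacs. At E9.5 they were -0.27, -0.13 and -0.16 in mutant yolk sacs, against -0.34, -0.32 and -0.38 in wild-type ones. The groups overlapped at E8.5 and did not at E9.5, and the mutant array was the higher one in 6 of 6 pairs on a slide. The averaged difference was 0.11 ± 0.05 (SE; adjusted p = 0.250, limma with Benjamini-Hochberg adjustment over all genes). An exact two-sided permutation of genotype within stage gave p = 0.05, where 400 arrangements allow no value under 0.005. A substitution need not change the level of the transcript that carries it, so these values do not test the genotype labels.

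Averaged over both stages, 309 genes rose in the mutant (2.22% of the 13894 tested) and 302 fell (2.17%), together 4.4%. With this processing the changes were small. The median size among the 611 genes called was 0.25 on the log2 scale, 28 genes passed 1.5-fold and 2 passed 2-fold, Emid1 and Csf2rb. For some genes the size depended on the processing and the arrays used. Over 28 other settings with a test, Tmem145 ran from 0.71 to 1.55 and Ggt1 from 0.42 to 1.46, while Emid1 ran from -1.39 to -1.12. Genes past 1.5-fold and 2-fold were not counted under those settings. The median over all genes tested was 0.0008, with 50.5% of genes above 0. Without adjustment, 2336 genes had a p under 0.05. The median standard error was 0.048, against 0.067 for a difference at 1 stage. Without the 3 arrays high in Prl4a1, 130 genes rose and 156 fell, and 267 of the 611 remained called. With the replicate number, which is also the slide, as a block, 783 were called, 391 of them higher, and 604 of the 611 remained. With arrays centred on their median in place of loess, which shifted the median of all genes to -0.07, 28 rose and 175 fell. Without wild-type E8.5 replicate 2, the array high in Myl7 and Hes5, 328 rose and 347 fell.

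The averaged difference and its parts at the single stages come from the same arrays, so the following counts describe the 611 genes and give no separate support for them. All 611 had the same sign at E8.5 and at E9.5, against 59.9% of all genes tested. Mutant and wild-type arrays did not overlap at either stage for 447 of them, did not overlap at E8.5 alone for 82 and at E9.5 alone for 80, and overlapped at both for 2. Of all genes tested, 651 (4.69%) did not overlap at either stage with the same sign at both. Separation at 1 stage alone was not counted over all genes, so the 82 and 80 have no such share beside them. On the slides, each of which held 1 array of each group, 548 genes had 1 sign in 6 of 6 mutant and wild-type pairs and 63 in 5 of 6, and 11.9% of all genes tested had 1 sign in 6 of 6. The test of whether the genotype difference itself differed between E9.5 and E8.5 called 0 genes (0%) in limma, with 795 at an unadjusted p under 0.05 and a smallest adjusted p of 0.112. It called 1 gene when the Cy5 channel was used alone. Tested stage by stage in a fit with 4 group means, 99 genes rose and 101 fell at E8.5, 127 rose and 150 fell at E9.5, and 86 were called at both with the same sign. The average shares its arrays with both of these.

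**Figure D1:**
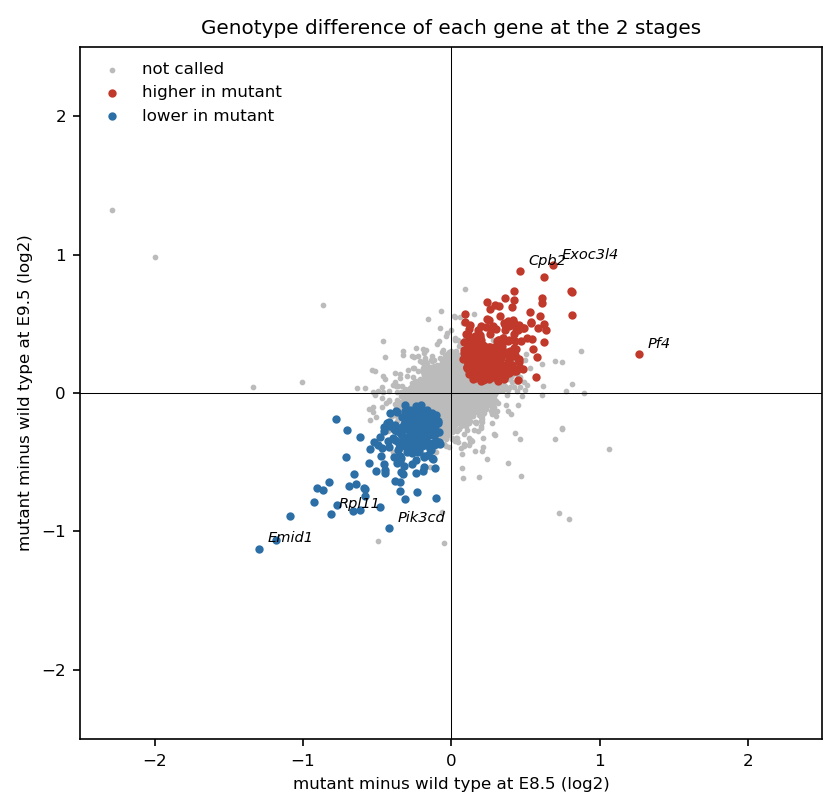
Mutant minus wild-type difference (log2) of each tested gene at E8.5 on the x axis and at E9.5 on the y axis, with the 309 genes called higher in red, the 302 called lower in blue and the rest in grey. The called genes lie in the 2 quadrants where both stages have the same sign, and Pf4 lies far to the right with 1.26 at E8.5 and 0.28 at E9.5.

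Ranks of genes here and below are among the 12299 tested genes with an official symbol. Emid1, which encodes a secreted protein with an EMI domain and collagen repeats, had the largest fall. Its log2 ratios on the single arrays were 0.34, 0.16 and 0.09 in mutant E8.5 yolk sacs, against 1.65, 1.23 and 1.59 in wild-type ones. At E9.5 the values were 0.72, 0.69 and 0.76 in mutant yolk sacs, against 1.88, 1.82 and 1.84 in wild-type ones. All 6 mutant arrays lay below all 6 wild-type arrays. The averaged fall was 1.21 ± 0.07 (adjusted p = 6.1e-08), so that the mutant level was 0.432 times the wild-type level (95% interval 0.392 to 0.477).

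Next came the adjacent receptor genes Csf2rb and Csf2rb2. Csf2rb encodes the common beta chain through which the receptors for GM-CSF, IL-3 and IL-5 signal, and Csf2rb2 encodes a beta chain that serves IL-3 alone and is found in the mouse. Csf2rb had 0.24, 0.34 and -0.0032 in mutant E8.5 yolk sacs, against 1.26, 1.17 and 1.69 in wild-type E8.5 yolk sacs. At E9.5 it had -0.35, -0.62 and -0.42 in mutant yolk sacs, against 0.66, 0.70 and 0.44 in wild-type ones. It fell by 1.12 ± 0.09 (adjusted p = 2.2e-06) and Csf2rb2 by 0.99 ± 0.09 (adjusted p = 7.7e-06). For both genes every mutant array lay below every wild-type array. The genes are close in sequence, and probes of one may take up transcript of the other. A second Csf2rb probe gave 0.02 at a mean log2 intensity of 6.08, against 7.43 for the median gene. In bulk tissue, fewer cells of a type and less RNA per cell cannot be told apart.

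Here and below, lists and their members were chosen with earlier results of these data known. Shares set beside 4.4% therefore describe the lists and do not test them. Of 20 measured genes of beta-chain cytokine receptors and their signalling, 4 fell and 0 rose, or 20% against 4.4% of all genes, with a list median of -0.01 against 0.0008 for all genes. Besides the receptor pair these were Pik3cd, the PI3-kinase subunit of leukocytes, which fell by 0.70 ± 0.09 (adjusted p = 0.0003), and Sirpa, the receptor by which CD47 restrains phagocytes, which fell by 0.65 ± 0.11 (adjusted p = 0.0024). Pik3cd lies on chromosome 4, which also carries Arid1a. It had -0.32, -0.43 and -0.46 in mutant E8.5 yolk sacs, against 0.11, -0.17 and 0.12 in wild-type ones, and at E9.5 -0.62, -0.43 and -0.39 in mutant yolk sacs, against 0.56, 0.48 and 0.45 in wild-type ones. The fall of Pik3cd was 0.42 ± 0.08 at E8.5 and 0.98 ± 0.08 at E9.5, and the test of the difference between these gave an adjusted p of 0.27.

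Of 21 measured myeloid and macrophage genes, 4 fell and 0 rose, or 19.05% against 4.4% of all genes. The list median was -0.05, and 7 members were above 0, where 50.5% of all genes were. With median centring 3 fell. Serpinb1a, an inhibitor of neutrophil proteases, fell by 0.76 ± 0.06 (adjusted p = 1.7e-06). Its log2 ratios ran from -3.59 to -3.33 in mutant E8.5 yolk sacs, against -2.83 to -2.76 in wild-type ones, and from -3.14 to -3.001 in mutant E9.5 yolk sacs, against -2.36 to -2.13 in wild-type ones. Fcgr3, an Fc receptor for IgG, fell by 0.48 ± 0.09, Lcp1, the actin-bundling plastin of blood cells, by 0.36 ± 0.07, and Cyba, a subunit of the phagocyte oxidase, by 0.30 ± 0.06 (adjusted p = 0.0046, 0.0085 and 0.011). Without the 3 arrays high in Prl4a1, Cyba had -0.29 and was no longer called (adjusted p = 0.068). Of 19 measured regulators of blood progenitors, 0 passed the test in either direction, and their median was 0.02.

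**Figure D2:**
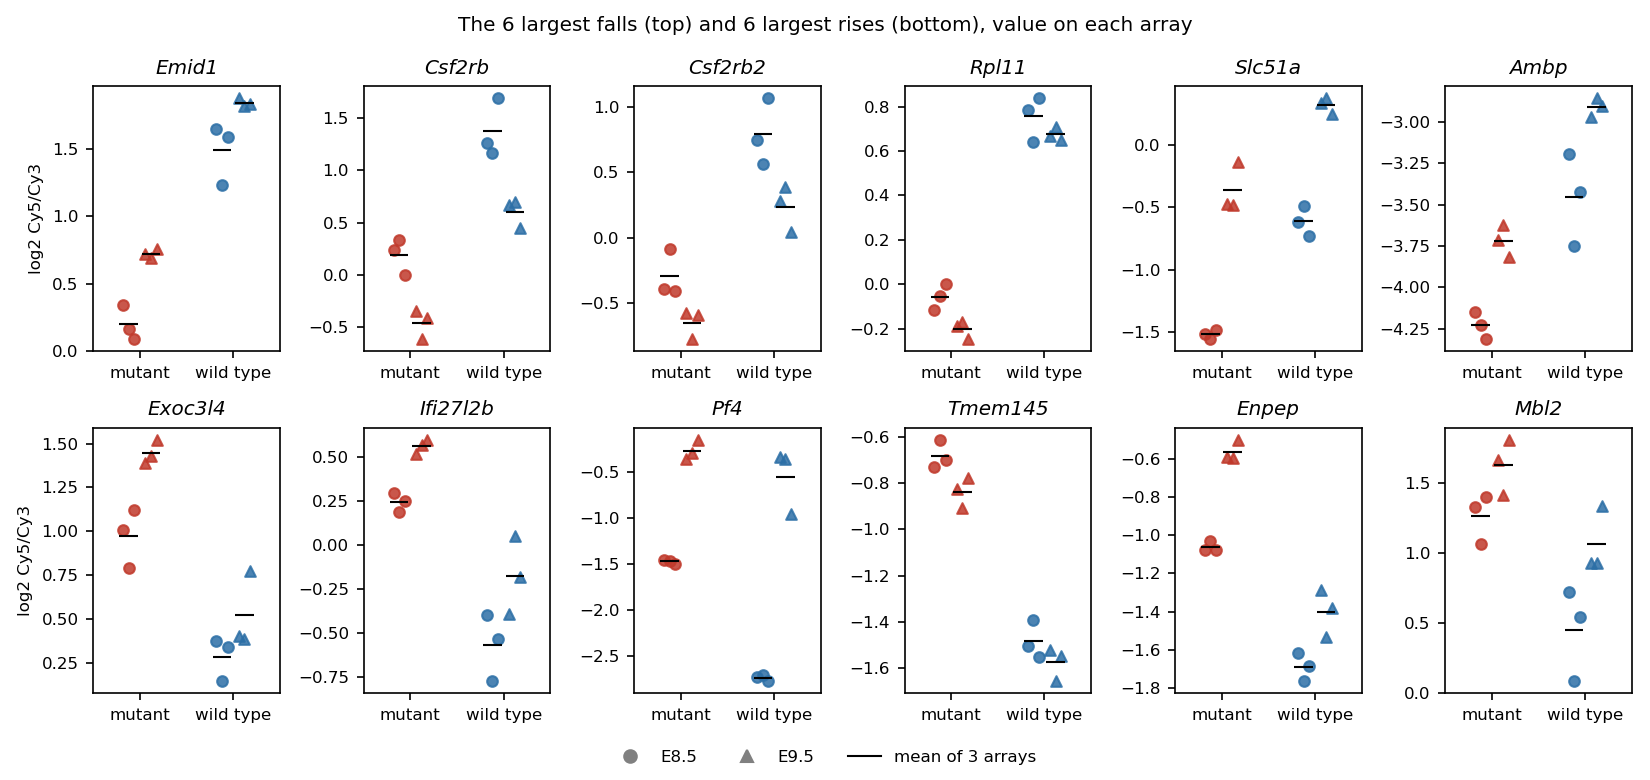
Log2 ratio of Cy5 over Cy3 on each of the 12 arrays for the 6 genes with the largest falls (upper row) and the 6 with the largest rises (lower row), mutant left in red and wild type right in blue, with circles for E8.5, triangles for E9.5 and a bar at the mean of each 3 arrays. Only genes with an official symbol were ranked. In Emid1, Csf2rb, Csf2rb2, Rpl11, Exoc3l4, Ifi27l2b, Tmem145 and Enpep the mutant and wild-type arrays do not overlap at all, while in Pf4 they separate at E8.5 and overlap at E9.5.

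Rpl11, which belongs to the large subunit of the ribosome, had the smallest adjusted p of the genes that fell. It had -0.12, -0.05 and 0.0005 in mutant E8.5 yolk sacs, against 0.79, 0.64 and 0.84 in wild-type ones. At E9.5 it had -0.19, -0.17 and -0.25 in mutant yolk sacs, against 0.67, 0.71 and 0.65 in wild-type ones. The fall was 0.84 ± 0.04 (adjusted p = 2.6e-08). Part of this ratio lay in the reference channel: in Cy3 alone, where all arrays hold the same RNA, Rpl11 was 0.35 higher on the mutant arrays (adjusted p = 0.000117), and in Cy5 alone it was 0.49 lower (-0.49). It was the 1 gene called in Cy3 alone. A second Rpl11 probe gave -0.25. Of 80 measured cytoplasmic ribosomal protein genes, Rpl11 fell and 0 rose, and the other 79 were not called.

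Other large falls belonged to transport, epithelium and metabolism. Slc51a, a subunit of the bile acid and steroid exporter OST, had -1.51, -1.56 and -1.49 in mutant E8.5 yolk sacs, against -0.62, -0.49 and -0.73 in wild-type ones. At E9.5 Slc51a had -0.48, -0.48 and -0.14 in mutant yolk sacs, against 0.34, 0.37 and 0.25 in wild-type ones. The groups did not overlap within either stage, and Slc51a fell by 0.80 ± 0.07 (adjusted p = 3.9e-06). Krt7, a keratin of simple epithelia, fell by 0.73 ± 0.11 (adjusted p = 0.0011). Its slide-by-slide differences were -1.18, -0.85 and -0.45 at E8.5 and -1.10, -0.58 and -0.25 at E9.5, so that slide 3 had the smallest at both stages. Pygl, the liver glycogen phosphorylase, fell by 0.66 ± 0.12, and Fbp2, the muscle form of fructose bisphosphatase, by 0.64 ± 0.06 (adjusted p = 0.0044 and 8.6e-06). Fxyd6, a regulator of the sodium pump, fell by 0.68 ± 0.06, and Tulp2, a member of the tubby family, by 0.73 ± 0.06. For Fxyd6 a second probe gave -0.10 at a mean log2 intensity of 6.13. Pafah2, which hydrolyses oxidized phospholipids, fell by 0.64 ± 0.05. Its groups did not overlap. Cdx2, a homeobox gene of posterior and extraembryonic tissue, fell by 0.40 ± 0.05 (adjusted p = 9.1e-05) and was the 1 gene called among 13 measured Hox and Cdx genes.

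The largest rise was that of Exoc3l4, an exocyst-like gene. It had 1.01, 0.79 and 1.12 in mutant E8.5 yolk sacs, against 0.38, 0.15 and 0.34 in wild-type ones, and at E9.5 1.39, 1.43 and 1.52 in mutant yolk sacs, against 0.41, 0.39 and 0.78 in wild-type ones. The rise was 0.80 ± 0.08 (adjusted p = 1.7e-05), and the mutant level was 1.75 times the wild-type level (95% interval 1.56 to 1.96). Tmem145, which encodes a membrane protein, rose by nearly the same amount on every slide, with pair differences of 0.78, 0.78 and 0.85 at E8.5 and 0.70, 0.75 and 0.77 at E9.5. Its rise was 0.77 ± 0.04 (adjusted p = 6.1e-08). Leap2, a liver and gut peptide that antagonizes the ghrelin receptor, rose by 0.63 ± 0.05, and Aadac, an arylacetamide deacetylase of liver, by 0.56 ± 0.05 (adjusted p = 1e-06 and 8e-06). Cbln1, a secreted cerebellin, rose by 0.58 ± 0.05, Ccdc68 by 0.55 ± 0.06, Plac8 by 0.55 ± 0.08 and Klf8, a Krüppel-like repressor, by 0.53 ± 0.10. For Cbln1 a second probe gave 0.09 at a mean log2 intensity of 5.89.

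**Figure D3:**
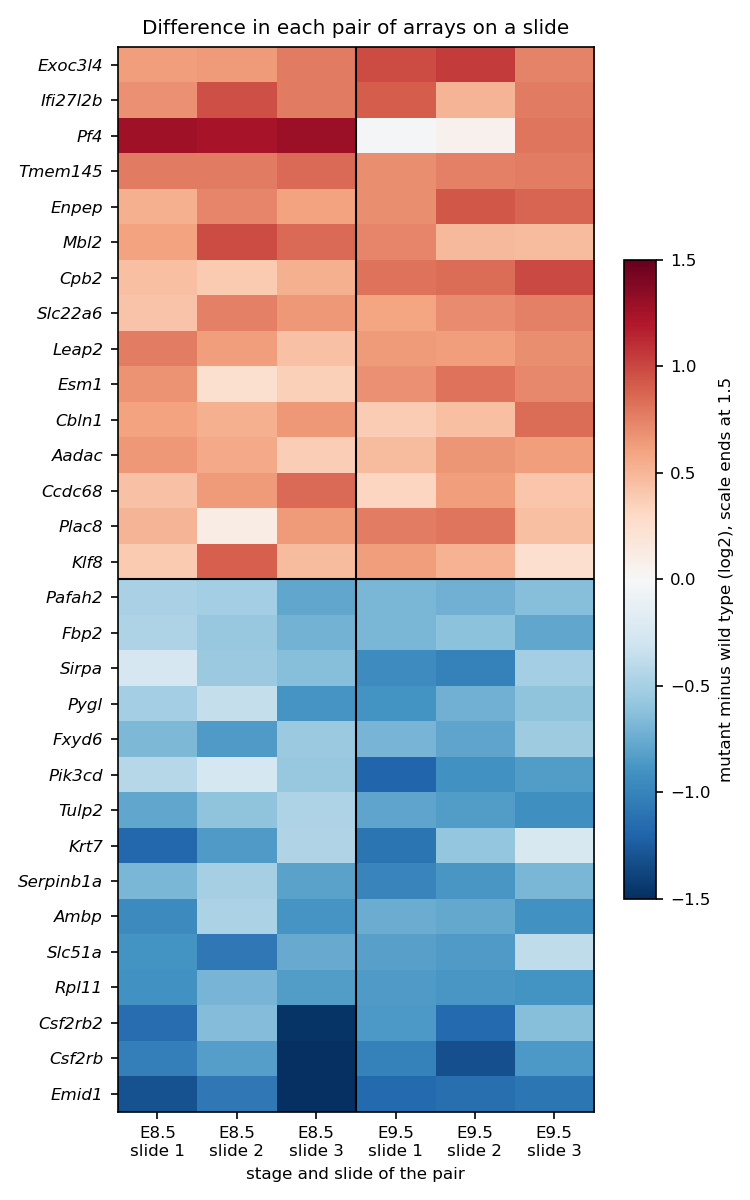
Difference between the mutant and the wild-type array of the same slide (log2, colour) for the 15 genes with the largest rises (upper block) and the 15 with the largest falls (lower block), in the 3 pairs at E8.5 and the 3 at E9.5. Only genes with an official symbol were ranked. All cells of a row have the same colour sign except for Pf4, which had -0.03 on slide 1 at E9.5.

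Plasma proteins secreted by the endoderm moved in both directions. Of 29 measured members, 6 rose and 2 fell, or 27.6% against 4.4% of all genes, with a median of 0.04. With median centring 1 rose and 1 fell. Mbl2, the mannose-binding lectin that starts complement activation, had 1.32, 1.06 and 1.40 in mutant E8.5 yolk sacs, against 0.72, 0.08 and 0.54 in wild-type ones. It had 1.66, 1.41 and 1.80 in mutant E9.5 yolk sacs, against 0.93, 0.93 and 1.33 in wild-type ones. Mbl2 rose by 0.69 ± 0.11 (adjusted p = 0.0018). Cpb2, the carboxypeptidase that slows clot lysis, rose by 0.67 ± 0.07 (adjusted p = 2.7e-05), by 0.46 ± 0.06 at E8.5 and 0.88 ± 0.06 at E9.5, and the difference between stages had an adjusted p of 0.27. A second Cpb2 probe gave 0.60. F2, prothrombin, rose by 0.48 ± 0.04 (adjusted p = 4.1e-06) with pair differences of 0.36 to 0.59. With median centring Mbl2 and F2 had 0.63 and 0.38 and were no longer called. With loess, Serpinc1, antithrombin, rose by 0.36 ± 0.06 (adjusted p = 0.0019). Ambp, on chromosome 4, the precursor of a plasma protease inhibitor and of alpha-1-microglobulin, moved the other way. It had -4.15, -4.22 and -4.31 in mutant E8.5 yolk sacs, against -3.19, -3.75 and -3.42 in wild-type ones, and it fell by 0.79 ± 0.07 (adjusted p = 8.6e-06).

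The chains of fibrinogen differed in sign. Fgb, the beta chain, rose by 0.28 ± 0.07 (adjusted p = 0.025), higher in the mutant in 5 of 6 pairs. Its call was lost without mutant E8.5 replicate 3, mutant E9.5 replicate 2 or 3, or wild-type E8.5 replicate 3 or E9.5 replicate 1 or 3 (0.24 to 0.27). Fgg, the gamma chain, fell by 0.25 ± 0.07 (adjusted p = 0.049), lower in 5 of 6 pairs, and kept its call only without mutant E9.5 replicate 2 or without wild-type E9.5 replicate 3 among the 12 arrays left out in turn (-0.27 to -0.21 where it was lost). Plg, plasminogen, rose by 0.22 ± 0.06 (adjusted p = 0.045) and kept its call without mutant E8.5 replicate 3, mutant E9.5 replicate 1 or wild-type E8.5 replicate 1, and lost it without each of the other 9 arrays (0.17 to 0.23). Fgg and Plg are given here because they complete the count, and they were chosen after their values were seen. Fgb, Fgg and Plg all lost their calls without the 3 arrays high in Prl4a1, at 0.23, -0.30 and 0.23.

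Among 16 measured peptidases and brush border genes 3 rose and 0 fell, or 18.8% against 4.4% of all genes. Enpep, the aminopeptidase that cleaves angiotensin II, had -1.08, -1.03 and -1.08 in mutant E8.5 yolk sacs, against -1.62, -1.76 and -1.69 in wild-type ones, and at E9.5 -0.59, -0.60 and -0.50 in mutant yolk sacs, against -1.29, -1.53 and -1.38 in wild-type ones. The groups did not overlap, and Enpep rose by 0.73 ± 0.05 (adjusted p = 1e-06). Ggt1, the gamma-glutamyltransferase of the cell surface, rose by 0.47 ± 0.05 (adjusted p = 6.7e-05), and Anpep, an alanyl aminopeptidase, by 0.25 ± 0.05 (adjusted p = 0.0086; a difference of 0.22 with an adjusted p of 0.11 without the 3 arrays high in Prl4a1). Of 28 measured solute carriers, 3 rose and 1, Slc51a, fell (14.3%). Slc22a6, an organic anion transporter, rose by 0.65 ± 0.07, Slc5a4b, of the glucose cotransporter family, by 0.45 ± 0.07, and Slc7a7, a cationic amino acid transporter subunit, by 0.31 ± 0.05. Of 29 measured genes for apolipoproteins and lipid transport, 0 fell and 3 rose (10.3%), with a median of 0.02. Fabp1, the liver fatty acid binding protein, rose by 0.38 ± 0.06 (adjusted p = 0.0013), and Slc27a2, a fatty acid transporter, by 0.35 ± 0.08 (adjusted p = 0.014; a difference of 0.31 with an adjusted p of 0.14 without those 3 arrays). The third was Fabp2, at 0.24 ± 0.06 (adjusted p = 0.03). Its call was lost without mutant E8.5 replicate 2, mutant E9.5 replicate 2 or 3, or any of the 3 wild-type E9.5 arrays (0.19 to 0.24). Of 27 measured genes of endocytosis and lysosomal proteases 3 rose and 0 fell (11.1%): Ctsb, Lrpap1 and Myo7a, at 0.21, 0.21 and 0.19. Ctsb kept its call only without mutant E9.5 replicate 1 or wild-type E8.5 replicate 2 (0.20 to 0.23 where lost), and Lrpap1 lost its call without mutant E8.5 replicate 3, mutant E9.5 replicate 2 or 3, or without wild-type E9.5 replicate 2 (0.18 to 0.21). Second probes of Ctsb and Slc27a2 gave -0.001 and 0.05. Of 38 measured detoxification enzymes Cyp26a1, Gstt2 and Gstm2 rose and 0 fell (7.89%). Cyp26a1, which breaks down retinoic acid, rose by 0.30 ± 0.07 (adjusted p = 0.021), a call lost without mutant E8.5 replicate 1 or 2 (both 0.29). Gstt2, at 0.24, kept its call only without wild-type E8.5 replicate 1 or 3 (0.20 to 0.26 where lost). Gstm2, at 0.21, kept its call without mutant E8.5 replicate 1 or 2, mutant E9.5 replicate 1 or wild-type E8.5 replicate 2 (0.18 to 0.21 where lost). Without the 3 arrays high in Prl4a1, 0 genes of the endocytosis and detoxification lists were called. Of 25 measured genes of cholesterol synthesis 0 were called. Median centring turned the medians of the plasma protein, lipid, endocytosis, solute carrier, peptidase, cholesterol and detoxification lists below 0. It moved the median of all genes to -0.07, so a list median below 0 need not lie below that of all genes. With median centring 2 peptidases and 2 solute carriers rose, Slc51a fell, 1 lipid transport gene fell and 0 rose, and 0 endocytosis or detoxification genes were called.

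Pf4, platelet factor 4, had the largest rise among megakaryocyte genes. It had -1.45, -1.46 and -1.49 in mutant E8.5 yolk sacs, against -2.73, -2.70 and -2.77 in wild-type ones. At E9.5 it had -0.36, -0.29 and -0.15 in mutant yolk sacs, against -0.33, -0.36 and -0.96 in wild-type ones, where the groups overlapped. The averaged rise of Pf4 was 0.77 ± 0.15 (adjusted p = 0.0076), made up of 1.26 ± 0.12 at E8.5 and 0.28 ± 0.12 at E9.5, and the difference between stages had an adjusted p of 0.16. Without the 3 arrays high in Prl4a1, which include mutant E8.5 and both E9.5 replicates 3, Pf4 had 0.70 and was no longer called (adjusted p = 0.084). Of 19 measured megakaryocyte and platelet genes, 3 rose and 0 fell, or 15.8% against 4.4% of all genes, 17 were above 0 and the median was 0.07. With median centring 0 were called: Pf4, Clec1b and Treml1 had 0.71, 0.36 and 0.24. Clec1b, the platelet receptor for podoplanin, rose by 0.42 ± 0.07 (adjusted p = 0.0021), and Treml1, stored in the granules of platelets, by 0.30 ± 0.07 (adjusted p = 0.016; a difference of 0.32 with an adjusted p of 0.083 without those 3 arrays).

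Red cell genes were mostly above 0, and few passed the test. Of 36 measured erythroid genes other than globins, 31 were above 0, 2 rose and 0 fell, or 5.56% against 4.4% of all genes, and with median centring 0 were called. Their median was 0.15, 0.20 at E8.5 and 0.06 at E9.5. Ppox, an enzyme of haem synthesis, rose by 0.21 ± 0.05 (adjusted p = 0.026). Ppox lost its call without mutant E8.5 replicate 3, mutant E9.5 replicate 1 or without wild-type E9.5 replicate 2 (0.18 to 0.20). Of the erythroid list, 0 genes were called without the 3 arrays high in Prl4a1. Of 6 measured globins and the haemoglobin chaperone 5 were above 0 and 0 were called. Hbb-y had 6.08, 7.05 and 6.75 in mutant E8.5 yolk sacs, against 5.99, 5.70 and 5.96 in wild-type ones, and an averaged difference of 0.49 ± 0.16 (adjusted p = 0.11).

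Interferon-stimulated genes held 7 rises and 1 fall among 28 measured members, or 28.6% against 4.4% of all genes, and 24 of the 28 were above 0 (median 0.09). Ifi27l2b, of a family of small interferon-induced membrane proteins, had 0.29, 0.19 and 0.25 in mutant E8.5 yolk sacs, against -0.40, -0.77 and -0.53 in wild-type ones. It had 0.52, 0.57 and 0.60 in mutant E9.5 yolk sacs, against -0.39, 0.05 and -0.18 in wild-type ones. The groups did not overlap, and Ifi27l2b rose by 0.77 ± 0.07 (adjusted p = 8.6e-06). Rtp4, which interferon induces and which helps receptors to the cell surface, rose by 0.52 ± 0.08 (adjusted p = 0.00089), and Bst2, tetherin, which holds budding viruses at the membrane, by 0.44 ± 0.07 (adjusted p = 0.0017). Bst2 had -0.47, -0.66 and -0.53 in mutant E8.5 yolk sacs, against -0.78, -1.16 and -0.72 in wild-type ones, and at E9.5 0.44, 0.43 and 0.29 in mutant yolk sacs, against -0.13, -0.17 and -0.20 in wild-type ones. The groups did not overlap within either stage. Parp14, an ADP-ribosyltransferase, rose by 0.31 ± 0.07, Isg15, a ubiquitin-like modifier, by 0.31 ± 0.07, Usp18, which removes Isg15 from proteins, by 0.26 ± 0.06, and Trim30a, which was named after its value was seen, by 0.21 ± 0.05 (adjusted p = 0.021, 0.024, 0.023 and 0.014). Isg15 lies on chromosome 4, as Arid1a does. Lgals3bp, a secreted galectin ligand also named after its value was seen, fell by 0.24 ± 0.05 (adjusted p = 0.022). The list median was 0.06 at E8.5 and 0.17 at E9.5. The filter kept probes well above background in 1 group alone, so members dim in 1 genotype could enter through the other. With probes well above background on all 12 arrays, 93 of the 99 called genes kept their call, 0 lost it and the rest were not tested. Over 27 other settings each, Rtp4 ran from 0.37 to 1.65, Isg15 from 0.12 to 0.97, Usp18 from 0.10 to 1.18 and Trim30a from 0.14 to 1.01.

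Some interferon calls were lost when 1 array was left out, with differences of similar size. Isg15 lost its call without mutant E8.5 replicate 3, mutant E9.5 replicate 3 or any of the 3 wild-type E9.5 arrays (0.27 to 0.30). Usp18 lost its call without mutant E9.5 replicate 2 or without wild-type E9.5 replicate 1 or 2 (0.22 to 0.26), and Lgals3bp without mutant E8.5 replicate 1, wild-type E8.5 replicate 3 or without wild-type E9.5 replicate 1 or 2 (-0.22 to -0.21). Without the 3 arrays high in Prl4a1, 3 genes of the interferon list rose and 1 fell, and with median centring 2 rose and 1 fell. Without wild-type E8.5 replicate 2, 11 rose and 2 fell. Of 20 measured genes of class I antigen presentation 3 rose and 0 fell, or 15% against 4.4% of all genes, and 18 were above 0, with a median of 0.08. Median centring turned the median to -0.006, where that of all genes was -0.07, and left 0 called. H2-Q1 rose by 0.47 ± 0.10 (adjusted p = 0.014) and H2-K1, a classical class I molecule, by 0.27 ± 0.06 (adjusted p = 0.0098), and neither was called without the 3 arrays high in Prl4a1 (0.49 and 0.25). The class I genes are close relatives whose probes may take up each other's transcripts. The third was Psme2, a subunit of the proteasome activator, at 0.16 ± 0.04 (adjusted p = 0.039), which kept its call without mutant E8.5 replicate 2, wild-type E8.5 replicate 1 or without wild-type E9.5 replicate 3 and lost it without each of the other 9 arrays (0.15 to 0.17).

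Promoters of the interferon genes that rose are shown where the table holds them, since the list had the most rises. Each spans the start of transcription, from RefSeq on GRCm38.p6, 5′ to 3′ on the gene's strand. Capitals mark GAAA, any 2 bases and GAAA, the core of the interferon-stimulated response element, searched on both strands. Isg15 lies at chr4:156200769-156201068 on the minus strand and holds 3 overlapping matches, which run together as 1 block of capitals. Bst2 lies at chr8:71537423-71537722 on the minus strand and holds 2 that overlap. Trim30a lies at chr7:104465144-104465443 on the minus strand and holds 1, on the opposite strand. It is 1 of the table's 2 entries for Trim30a, and the other holds the motif too.
Isg15: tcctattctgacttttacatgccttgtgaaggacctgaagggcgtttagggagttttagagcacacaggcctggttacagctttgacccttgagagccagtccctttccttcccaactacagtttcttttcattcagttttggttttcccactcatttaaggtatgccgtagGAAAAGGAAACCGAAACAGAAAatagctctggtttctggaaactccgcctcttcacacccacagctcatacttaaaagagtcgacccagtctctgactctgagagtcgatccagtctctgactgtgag
Bst2: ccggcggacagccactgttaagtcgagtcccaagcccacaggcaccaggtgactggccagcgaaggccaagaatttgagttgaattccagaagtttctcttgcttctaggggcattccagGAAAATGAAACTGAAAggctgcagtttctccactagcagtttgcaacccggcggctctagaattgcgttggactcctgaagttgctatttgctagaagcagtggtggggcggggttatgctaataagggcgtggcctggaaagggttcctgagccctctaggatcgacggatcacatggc
Trim30a: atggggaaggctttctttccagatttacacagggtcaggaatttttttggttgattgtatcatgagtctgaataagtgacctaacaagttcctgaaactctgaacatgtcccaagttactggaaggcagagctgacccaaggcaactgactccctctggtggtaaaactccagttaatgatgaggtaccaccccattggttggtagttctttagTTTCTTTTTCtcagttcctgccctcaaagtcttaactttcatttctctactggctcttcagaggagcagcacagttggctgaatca
Of the 7 genes that rose, 3 had a promoter in the table and the motif was in all 3. Of the 20 that were not called 16 had a promoter and 9 held the motif, and in Lgals3bp, which fell, it was not found. Of the 27025 genes of the table, 3.99% had a promoter that held it.

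**Figure D4:**
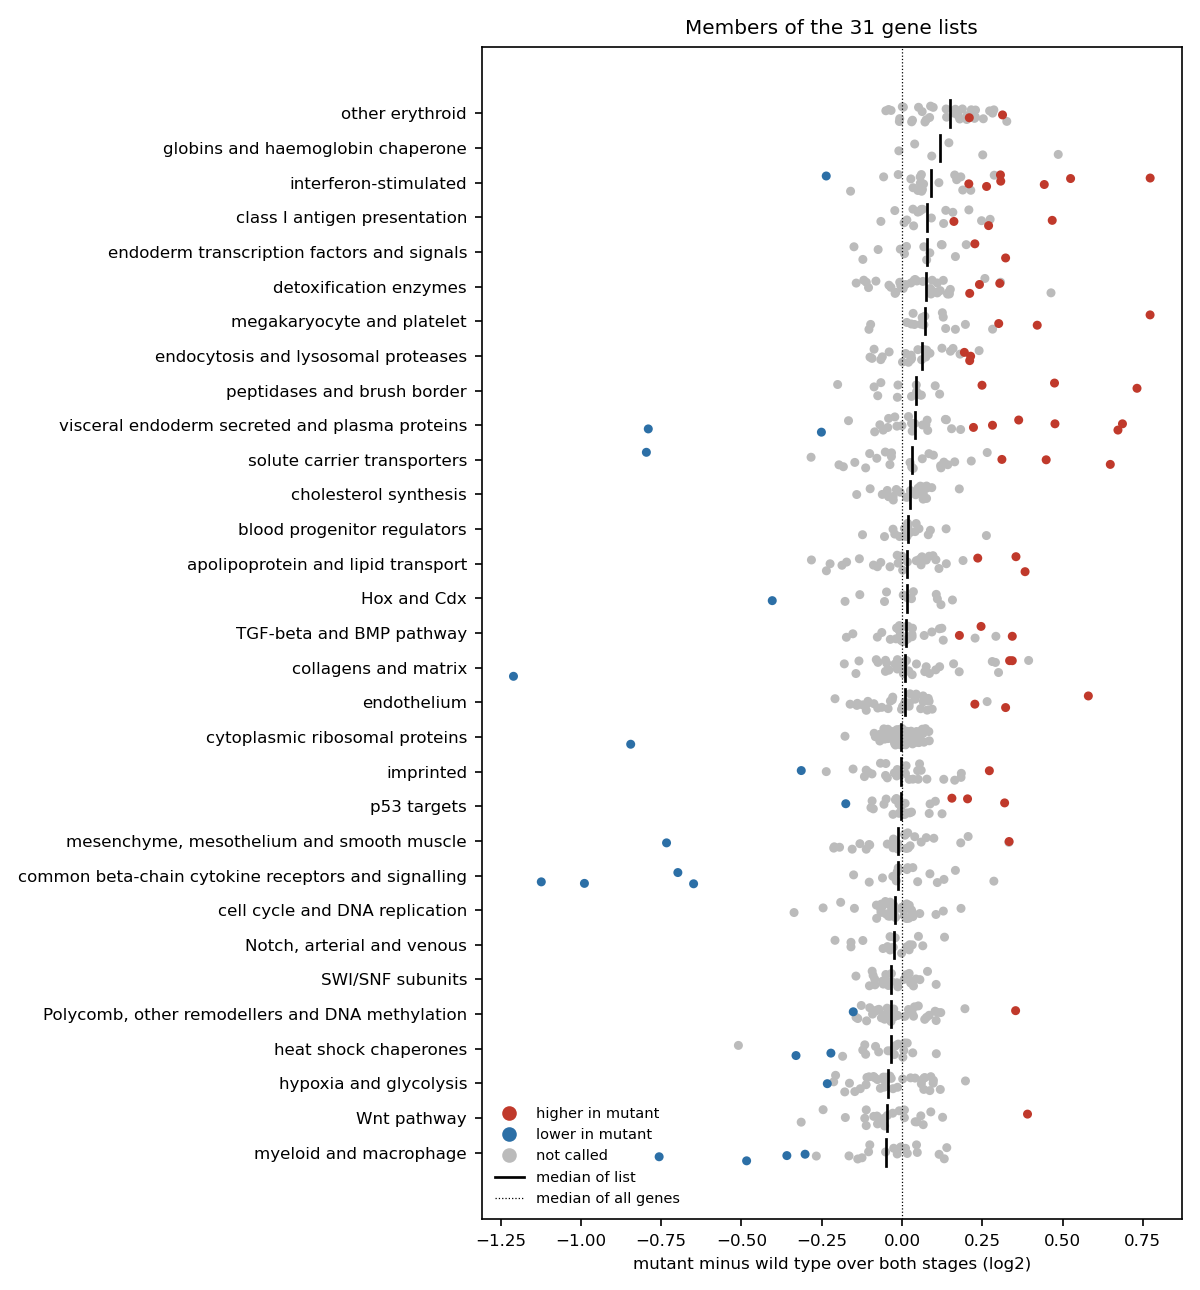
Averaged mutant minus wild-type difference (log2) of each measured member of the 31 gene lists, 1 row per list ordered by median, with genes called higher in red, called lower in blue and not called in grey, a black bar at the list median and a dotted line at the median of all genes. The row of other erythroid genes has the highest median (0.15) with 2 red points among 36, and the interferon-stimulated row has 7 red points and 1 blue among 28. With median centring in place of loess, 13 of the 31 medians change sign, and the median of all genes moves to -0.07.

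Vessel, matrix and mesenchyme lists had medians near that of all genes. Median centring turned those of the endothelial and matrix lists below 0, where the median of all genes was -0.07. Of 39 measured endothelial genes 3 rose and 0 fell (7.69%), with a median of 0.009. Esm1, a proteoglycan of endothelial tip cells, rose by 0.58 ± 0.08 (adjusted p = 0.00052), with 0.42 ± 0.10 at E8.5 and 0.74 ± 0.10 at E9.5. Sox17 and Sox7, transcription factors of endothelium and of endoderm, rose by 0.32 ± 0.06 and 0.23 ± 0.04 (adjusted p = 0.0045 and 0.0061), and both also stand in the list of endoderm factors, where they were the 2 called among 15 (13.3%, against 4.4% of all genes). With median centring Sox17 and Sox7 had 0.26 and 0.16 and lost their calls, so that 0 of the endoderm factors and 1 endothelial gene, Esm1, remained called. Of 18 measured Notch, arterial and venous genes 0 were called. Of 34 measured collagen and matrix genes Tgfbi and Sparc rose and Emid1 fell (8.82%), and with median centring 0 rose and 1 fell. Sparc, a collagen-binding matrix protein, rose by 0.33 ± 0.04 (adjusted p = 0.00022) without overlap of the groups, and a second Sparc probe gave 0.18. Tgfbi, an adhesion protein induced by TGF-beta, rose by 0.34 ± 0.07 (adjusted p = 0.013; a difference of 0.35 with an adjusted p of 0.089 without the 3 arrays high in Prl4a1). Col1a1, the collagen chain of connective tissue, differed by 0.39 ± 0.12 (adjusted p = 0.090), with 0.77 ± 0.11 at E8.5 and 0.02 ± 0.11 at E9.5. Pdgfra, the PDGF receptor of mesenchyme, rose by 0.33 ± 0.06 (adjusted p = 0.0035) and was the 1 rise among 29 measured genes of mesenchyme, mesothelium and smooth muscle, where Krt7 was the 1 fall.

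Dkk1, a secreted Wnt antagonist, rose by 0.39 ± 0.08 (adjusted p = 0.0079) and was the 1 called among 23 Wnt pathway genes. Without the 3 arrays high in Prl4a1 Dkk1 had 0.34 (adjusted p = 0.051). Among 31 genes of TGF-beta and BMP signalling, Tgfbi, Id2 and Id1 rose (9.68%, against 4.4% of all genes). With median centring 0 genes of the Wnt and TGF-beta lists rose and 1 of each fell. Id2, an inhibitor of bHLH factors, rose by 0.25 ± 0.06 (adjusted p = 0.020), and Id1 by 0.18 ± 0.05 (adjusted p = 0.047), a call that was kept when mutant E8.5 replicate 2 was left out and lost without each of the other 11 arrays (0.14 to 0.19). Of 26 measured SWI/SNF subunits 0 were called, with a median of -0.03 and a range of -0.14 to 0.11, Arid1a being the highest. Of 39 measured genes of Polycomb, other remodellers and DNA methylation, 2 were called. Dnmt3b, a de novo DNA methyltransferase, rose by 0.35 ± 0.07 (adjusted p = 0.00995). Its log2 ratios were 2.43, 2.63 and 2.49 in mutant E8.5 yolk sacs, against 2.08, 2.14 and 1.95 in wild-type ones, and the groups overlapped at E9.5.

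Of 25 measured p53 targets 3 rose and 1 fell, or 16% against 4.4% of all genes, with a median of -0.003. With median centring 0 p53 targets, imprinted genes or genes of the Polycomb and DNA methylation list were called. Pmaip1 and Bbc3, which promote cell death as Noxa and Puma, rose by 0.32 ± 0.06 and 0.20 ± 0.04 (adjusted p = 0.0063 and 0.0099), and neither was called without the 3 arrays high in Prl4a1. Sesn2, on chromosome 4, and Tigar were the others, at 0.16 and -0.18. Sesn2 kept its call without mutant E9.5 replicate 1 or without wild-type E9.5 replicate 1 or 2, and lost it without each of the other 9 (0.13 to 0.16). For Sesn2 a second probe gave 0.005 at a mean log2 intensity of 7.59. Tigar kept its call without mutant E8.5 replicate 1, mutant E9.5 replicate 2, wild-type E8.5 replicate 2 or without wild-type E9.5 replicate 1, and lost it without each of the other 8 (-0.18 to -0.16). Of 21 measured chaperones of the heat shock response 2 fell and 0 rose (9.52%), and with median centring 1 fell. Hspb8, a small heat shock protein, fell by 0.33 ± 0.06 (adjusted p = 0.0035), and Bag3, its partner, by 0.22 ± 0.05 (adjusted p = 0.020), a call lost without mutant E8.5 replicate 1 or 3 or wild-type E8.5 replicate 3 (-0.21 to -0.20). The heat shock list median was -0.11 at E8.5 and 0.08 at E9.5. Of 40 measured genes of the cell cycle and DNA replication 0 were called, and of 36 genes of hypoxia and glycolysis Pfkp fell by 0.23 ± 0.04 (adjusted p = 0.0043). Further Pfkp probes gave -0.05 and 0.04. Among 28 measured imprinted genes Dlk1 rose by 0.27 ± 0.06 (adjusted p = 0.0094; a difference of 0.27 with an adjusted p of 0.064 without the 3 arrays high in Prl4a1) and Mest fell by 0.31 ± 0.08 (adjusted p = 0.030). The call of Mest was lost without mutant E8.5 replicate 1 or 3, mutant E9.5 replicate 2 or without wild-type E9.5 replicate 3 (-0.32 to -0.27).

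Chromosome 4, which carries Arid1a, had the highest share of genes called. There 59 of 782 tested genes passed (7.54%), 26 higher and 33 lower, against 4.4% of all genes and 1.22% on the X chromosome, which had the lowest share of the chromosomes with more than 3 genes tested. Of the 100 tested genes nearest to Arid1a in gene order, 50 on each side, 17 were called (17%), 6 higher and 11 lower. On one side 12 of 50 were called (24%) and on the other 5 of 50 (10%). Rpl11, 43 tested genes from Arid1a, had the largest of these differences. Pafah2 lay 15 tested genes away, Aunip, which takes part in DNA repair, 18, and Snhg3, a host gene of small nucleolar RNAs, 26 on the other side. Snhg3 fell by 0.46 ± 0.04 and Aunip by 0.40 ± 0.06 (adjusted p = 1.3e-05 and 0.00052). Pnrc2, a decapping cofactor, fell by 0.42 ± 0.05 and Clic4, an intracellular channel-like protein, by 0.53 ± 0.10. For Clic4 a second probe gave -0.01 at a mean log2 intensity of 5.91. Paqr7, a progesterone receptor of the membrane, rose by 0.33 ± 0.05 and Eloa, an elongin subunit, by 0.28 ± 0.04. The 2 further Eloa probes gave 0.16 and -0.30. The labels give the mutation and no origin of the chromosome around it, so genotype at Arid1a and at linked loci cannot be told apart.

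**Figure D5:**
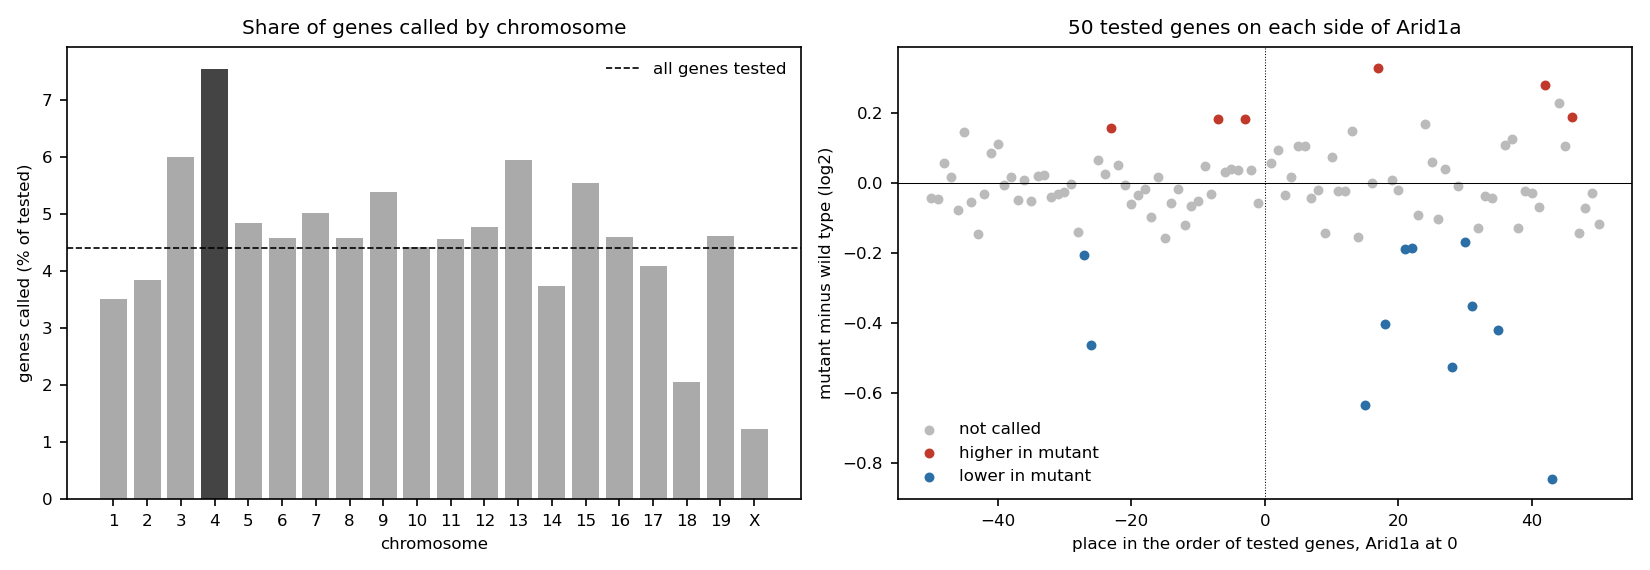
Left, share of tested genes called (%) on each chromosome, with chromosome 4 dark and a dashed line at 4.4% for all genes. Right, averaged mutant minus wild-type difference (log2) of the 50 tested genes on each side of Arid1a in gene order, with called genes in red (higher) and blue (lower), 17 of 100, and Rpl11 lowest at -0.84.

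Beside the threshold, the last genes to pass were Lrig3, at 0.26 ± 0.07, and Sft2d2, at -0.21 ± 0.06 (adjusted p = 0.04986 for both). The first to miss it were Kntc1, at 0.15 ± 0.04 (adjusted p = 0.0501), and Hexim2, at 0.16 ± 0.04 (adjusted p = 0.0501). Of the 611 genes called, 196 had another measured probe, and in 105 of them (53.6%) another probe had the same sign and at least 50% of the size. In 14 every other probe moved the opposite way. The text above gives other probes for some genes only. Weaker ones not given there were -0.12 for Fcgr3, 0.16 for Serpinc1, 0.15 for Dkk1, 0.06 for Sox7 and -0.08 for Bag3. Further probes gave 0.13 and 0.22 for H2-Q1 and 0.12 and 0.03 for H2-K1. Closer to the main probe were -0.57 for Krt7, 0.29 for Sox17 and 0.26 for Dlk1, among others.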

How the data were processed

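Spot intensities and their flags were deposited as 1 scanner text file per array, written by Feature Extraction 9.5.1.1 per the file headers, with Cy3 on the whole-mouse reference and Cy5 on the yolk sac per the labels. The authors' deposited table holds log2 ratios of 19033 rows, centred on each row's median over the arrays as its values show, made from the log10 ratios that Feature Extraction deposited in the array files, and it served as an alternative, as did the deposited processed intensities. From the mean and local background intensities, log2 ratios were computed with limma 3.58.1 in R 4.3.3: normexp with offset 50, loess within arrays with control spots at weight 0, and spots flagged as outliers or more than 20 units below background set missing (40 values in all). Probes well above background in Cy5 on all 3 arrays of at least 1 group were kept (20065), and the brightest one stood for its gene. A linear model with genotype and stage was fitted to 13894 genes over all 12 arrays, with empirical Bayes moderation and Benjamini-Hochberg adjustment over all of them, and a gene was called at an adjusted p under 0.05. Whether stages differed was tested in a model of 4 group means. Precision is limited by the number of arrays, and each p-value sets a difference against the spread between these samples, moderated over genes. Dyes were not swapped. A dye effect that is the same on every array cancels in the difference, and one that varies between arrays does not.

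The headers put replicates 1, 2 and 3 of all groups on 3 slides of 4 arrays. The barcode field of the 4 replicate 3 arrays names the slide of replicate 2, so that slide 3 rests on another header field. Each group had the same place on every slide, so place and group cannot be told apart. Deviations of mutant and wild-type arrays with the same number correlated at 0.0777 to 0.301 within a stage. Between arrays of different groups, the median correlation was 0.23 over 18 pairs with the same number. It was -0.10 over 36 pairs with different numbers. The main fit did not use this pairing. Median shifts, other background settings, single channels, slide blocks, array weights, an Xist covariate, single stages and omitted arrays were tried as alternatives. The fit was also tested on simulated data.

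Genes were named from their accession or symbol by RefSeq on GRCm38.p6, which left 8129 of 41174 probes unmatched. Genes to name were picked among the 12299 tested genes with an official symbol. Named were Arid1a, the 15 largest rises and falls, the 5 smallest p-values in each direction, up to 6 called members of each list, the 2 members with the largest differences of lists with fewer than 2 called, and called neighbours of Arid1a. Members and lists were chosen with earlier results of these data known. Results of a few called list members are not reported here.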

Additional observations from a re-analysis of the deposited data

Results flagged for a closer look

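In each genotype the 6 arrays of a gene were examined after the stage effect was removed, and an array was singled out where its gap to the nearest of the others passed Dixon's 95% critical value. This held in 13 of 208 groups (6.25%), where chance gives about 1 in 20. The log2 ratios as measured were -2.14 for Tgfbi in mutant E9.5 replicate 1, -0.8 for Parp14 and 1.74 for Aunip in mutant E9.5 replicate 2, and 0.82 for Gstt2, -0.23 for Rcan3 and -0.14 for Slc51a in mutant E9.5 replicate 3. Mest had -0.25 in mutant E8.5 replicate 3. Among wild-type arrays, Ctsb had 0.01, Gstm2 -1.55 and Pafah2 1.01 in E8.5 replicate 2, which was also the array high in Myl7 and Hes5. Id1 had 0.09 and Sirpa -0.95 in wild-type E9.5 replicate 2, and Paqr7 had 0.67 in wild-type E9.5 replicate 3.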

How the results depend on the processing

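Against 309 genes higher and 302 lower in the mutant, median centring in place of loess gave 28 and 175, the E8.5 arrays alone 62 and 61, the E9.5 arrays alone 111 and 122, and the fit without the 3 arrays high in Prl4a1 130 and 156; the last 3 have fewer arrays, and the cause of the first was not tested. Leaving out 1 array at a time gave 210 to 328 higher and 224 to 347 lower. A replicate block, which is also a slide block, gave 783 calls, 391 of them higher, and 604 of the 611 genes remained called. Every other setting stayed within 1.5 times of both counts, and the lowest were 278 higher and 270 lower. The test of a difference between stages called 0 genes, and 1 with Cy5 alone. The difference of Arid1a lay between 0.003 and 0.16. Of the 99 called genes in the tables behind the text, 0 changed sign under any setting with a test, 59 lost their call with median centring, 43 without the 3 arrays high in Prl4a1 and 27 without at least 1 single array. Dim probes limit what could be seen, since a median Cy5 intensity of 43.1 to 46.8 lay close to a median background of 35 to 37.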
